A study of Mus musculus with 5 samples.

Results

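The genes described are 29 members of the pathway that runs from Toll-like receptors to the transcription factor NF-kB, with their accessory proteins, kinases, subunits and inhibitors. An interval of binding was assigned to the protein-coding gene whose transcription start site (TSS) was nearest to its centre, within 50 kb, in GENCODE M1 on mm9. By this rule 28 of the 5590 intervals in the 5 lists belonged to 12 of the 29 genes. The data are chromatin immunoprecipitation with sequencing (ChIP-seq) of the interferon regulatory factors IRF4 (antibody M-17) and IRF8 (antibody C-19) in B cells of wild type C57BL/6 mice. In 4 groups, naive splenic B cells were cultured with 10 μg/ml lipopolysaccharide (LPS), and IRF4 or IRF8 was mapped after 48 h or 72 h. In the other group, IRF8 was mapped in germinal centre (GC) B cells sorted on day 13 after immunisation with NP-KLH. These cells were frozen and went to a service company for the ChIP-seq, per the series' design text, although the label calls them fresh. Peak lists hold no expression values, so the cell types were not checked against markers. Each group was 1 library, so no difference between lists has a replicate check.

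Toll-like receptors recognise microbial products: TLR4, with its partner MD-2 (Ly96), binds LPS, and TLR7 and TLR9 recognise nucleic acids in endosomes. The adaptor MyD88 passes the signal to IRAK kinases and TRAF6, and the B cell receptor reaches the same point through BCL10 and MALT1. Both release NF-kB dimers from their IκB inhibitors, and NF-kB then raises several of its own inhibitors, among them IκBα (Nfkbia) and A20 (Tnfaip3). B cells are unusual in that they carry both Toll-like receptors and a clonal antigen receptor, and LPS drives them to divide and to become plasmablasts. IRF4 and IRF8 bind DNA weakly alone and often beside a partner: PU.1 or SPIB at the ETS-IRF composite element (EICE), or BATF and JUN proteins at AP-1-IRF composite elements (AICE).

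The LPS libraries held 3065426 to 4375858 tags, with 0.18% to 0.82% of them under peaks according to the file headers. The lists held 1573 (IRF4, 48 h), 898 (IRF4, 72 h), 234 (IRF8, 48 h) and 1059 (IRF8, 72 h) peaks, and the GC list 1826 intervals. For IRF8 at 72 h the header names a tag directory with the suffix of replicate 2, and whether other libraries stand behind it is not given in the sources used here. The GC intervals came from another caller, had a median width of 1144.5 bp against 500 bp and carried no tag count, so cell type and caller cannot be told apart in any comparison with that list. A gene that is missing from a list may still have been bound below the threshold of the caller.

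The sequences under the receptor genes are shown first, because they hold the composite elements found near these genes. All are from mm9, forward strand, 5′ to 3′, with the named elements in capitals. Directly upstream of Tlr4 (chr4:66488498-66488617) the capitals mark a PU.1-type ETS site, and those upstream of Tlr9 (chr9:106124809-106124928) mark such a site and an AP-1 site. The 2 short stretches lie just inside the first exon (chr4:66488718-66488744 and chr9:106124930-106124956), and their capitals mark an ETS site together with the first letters of an EICE. The Tlr4 intron (chr4:66504393-66504593) held a spaced AICE, in which an AP-1 site and an IRF half-site stand some bases apart, and the Ly86 intron (chr13:37485312-37485432) held a direct AICE, in which they touch.
Tlr4 upstream: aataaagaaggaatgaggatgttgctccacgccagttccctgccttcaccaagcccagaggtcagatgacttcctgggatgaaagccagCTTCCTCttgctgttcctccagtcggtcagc
Tlr4 start: ggcactcTCACTTCCTCtttgaatata
Tlr9 upstream: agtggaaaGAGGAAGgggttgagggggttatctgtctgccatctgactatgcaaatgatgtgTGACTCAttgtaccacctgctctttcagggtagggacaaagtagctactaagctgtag
Tlr9 start: gaaagtgTCACTTCCTCaattctctga
Tlr4 intron: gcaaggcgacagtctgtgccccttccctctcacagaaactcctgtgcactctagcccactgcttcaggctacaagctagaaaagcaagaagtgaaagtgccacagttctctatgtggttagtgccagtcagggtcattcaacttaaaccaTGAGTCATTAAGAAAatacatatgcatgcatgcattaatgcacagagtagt
Ly86 intron: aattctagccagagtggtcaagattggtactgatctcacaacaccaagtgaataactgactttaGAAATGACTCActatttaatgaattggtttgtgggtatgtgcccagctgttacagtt

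How many of the genes were bound was asked first. IRF4 intervals lay at 8 of the 29 genes at 48 h (27.6%) and at 5 at 72 h (17.2%), where 4.82% and 3.02% of all 22238 protein-coding genes had an interval in the same lists. IRF8 intervals lay at 1 gene at 48 h (3.45%, against 0.791% of all genes), at 3 genes at 72 h (10.3%, against 3.37%) and at 4 genes in GC B cells (13.8%, against 5.99%). In any of the 5 lists, 12 of the 29 genes had an interval (41.4%), against 11.8% of all genes. In 3 or more lists it was 3 genes, Nfkb1, Tlr4 and Tlr9, where 1.68% of all genes were in as many. The share of these genes was above that of all genes in each list. The genes were chosen with earlier results of these lists known, so this is a description and no test is given.

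**Figure D1:**
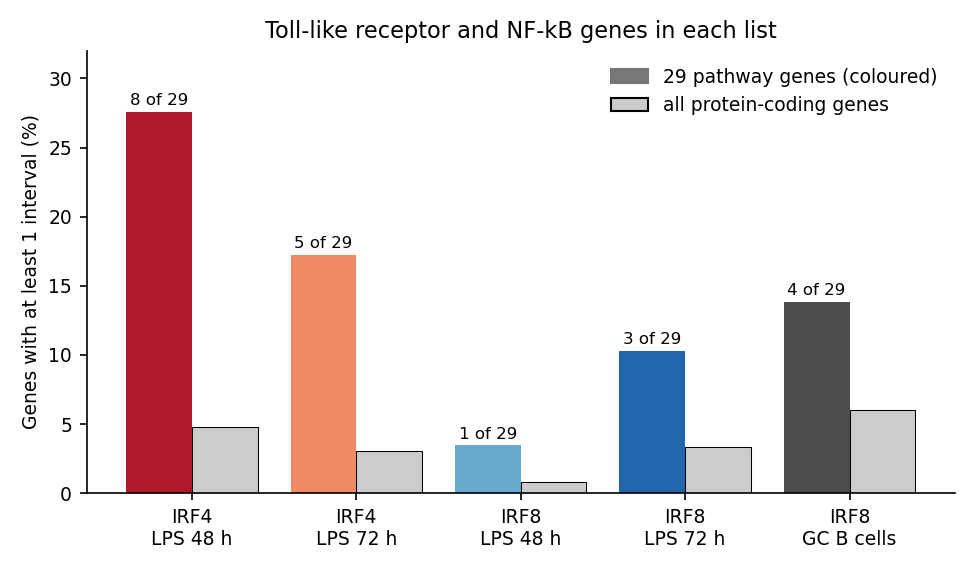
Share of genes with at least 1 interval (y axis, %) in each of the 5 lists (x axis). Coloured bars are the 29 pathway genes, with their number, and grey bars all 22238 protein-coding genes; each list is 1 library, so there are no error bars. The coloured bar stands above the grey one in all 5 lists, from 1 of 29 genes for IRF8 at 48 h to 8 of 29 for IRF4 at 48 h.

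The stretch of genome from which a gene can receive an interval differs between genes, and it moved with this result. It was 60.6 kb at the median of the 29 genes, 86.9 kb for the 12 genes with an interval, 56.8 kb for the 17 without one, and 45.7 kb over all protein-coding genes. Counted per Mb of that stretch, the 29 genes received 6.59 IRF4 intervals at 48 h against 0.956 over all genes, and 3.84 against 0.563 at 72 h. For IRF8 the values were 0.549 against 0.14 at 48 h, 2.2 against 0.62 at 72 h, and 2.2 against 1.16 in GC B cells. The order of the lists by gene share was IRF4 48 h, IRF4 72 h, GC, IRF8 72 h and IRF8 48 h. Among the LPS lists the order by length was the same except at 72 h, where the IRF8 list was longer than the IRF4 list. The part of list length in the order by gene share was not tested. At equal list length, with the 234 highest peaks of each LPS list, 2 genes remained for IRF4 at 48 h, 2 for IRF4 at 72 h, 1 for IRF8 at 48 h and 0 for IRF8 at 72 h, against 0.791% to 0.814% of all genes. Tied tag counts at this limit decide some of them: with every tied peak kept, the counts were 3 (with Tlr9), 2, 1 and 1 (Tlr4), against 0.913%, 0.971%, 0.791% and 1.01% of all genes.

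By role, 3 of 7 receptors and accessory proteins, 4 of 10 adaptors and kinases, 2 of 5 NF-kB subunits and 3 of 7 IκB proteins and feedback inhibitors had an interval in some list, shares of 42.9%, 40%, 40% and 42.9%. The roles thus hardly differed in how many genes were bound, and over all genes the share in any list was 11.8%. Their intervals numbered 10, 8, 7 and 3, but a place counts once for each list that holds it, and the roles differ in size. The promoters of Tlr4 and Tlr9, for example, count 3 times each, so these numbers do not rank the roles. Of the 28 intervals, 24 were LPS peaks. The feedback inhibitors had 2 peaks for IRF4 at 48 h and 1 GC interval, where 4.82% and 5.99% of all genes had an interval. They had none in the IRF4 72 h list or in the IRF8 LPS lists. In these lists the shares of all genes were 3.02% (IRF4, 72 h), 0.791% (IRF8, 48 h) and 3.37% (IRF8, 72 h). An absence among 7 genes says little at such shares. The 17 genes with no interval were Cd14, Cd180, Ly96, Tlr7, Myd88, Irak1, Irak2, Irak4, Traf3, Bcl10, Nfkb2, Rela, Relb, Irak3, Nfkbib, Nfkbie and Bcl3. They include the adaptor common to most Toll-like receptors (Myd88) and all 4 IRAK family genes. Most genes had no interval, since 11.8% of all genes had one in any list. The stretch from which an interval could come was 9.54 kb for Myd88 and 18.9 kb for Irak4. It was 59.6 to 63.2 kb for Irak1, Irak2 and Irak3, against a median of 60.6 kb for the 29 genes. Whether this bears on their absence was not tested.

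Merged over lists, the 28 intervals formed 18 places, of which 11 were in 1 list, 7 in 2 or more and 3 in 3 lists. An IRF4 list held 13 of them and an IRF8 list 9, and 4 were common to both factors. Of these 4, the Tlr9 promoter was common only through the GC list, which differs in cell type and caller. It was 1 of 4 GC intervals in the IRF4 48 h list (25%, against 10.5% of all GC intervals). Shares over the merged places of all genes are not given here, so these counts do not show whether the overlap was unusual. By list, 2 of the 4 IRF8 peaks at 72 h were in the IRF4 48 h list (50%, against 26.5% of all IRF8 72 h peaks) and 1 in the IRF4 72 h list (25%, against 24.4%). The lone IRF8 peak at 48 h was in both IRF4 lists, as were 52.1% (48 h) and 45.7% (72 h) of its whole list. Of the 7 IRF4 peaks at 72 h, 6 were also in the 48 h list (85.7%), where 59.7% of the whole 72 h list was; of the 12 peaks at 48 h, 6 were in the 72 h list (50%, against 34.1%). The 2 IRF8 LPS lists, with 1 and 4 peaks at these genes, had no place in common there; of all peaks, 59% of the 48 h list were in the 72 h list and 13% the other way round.

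**Figure D2:**
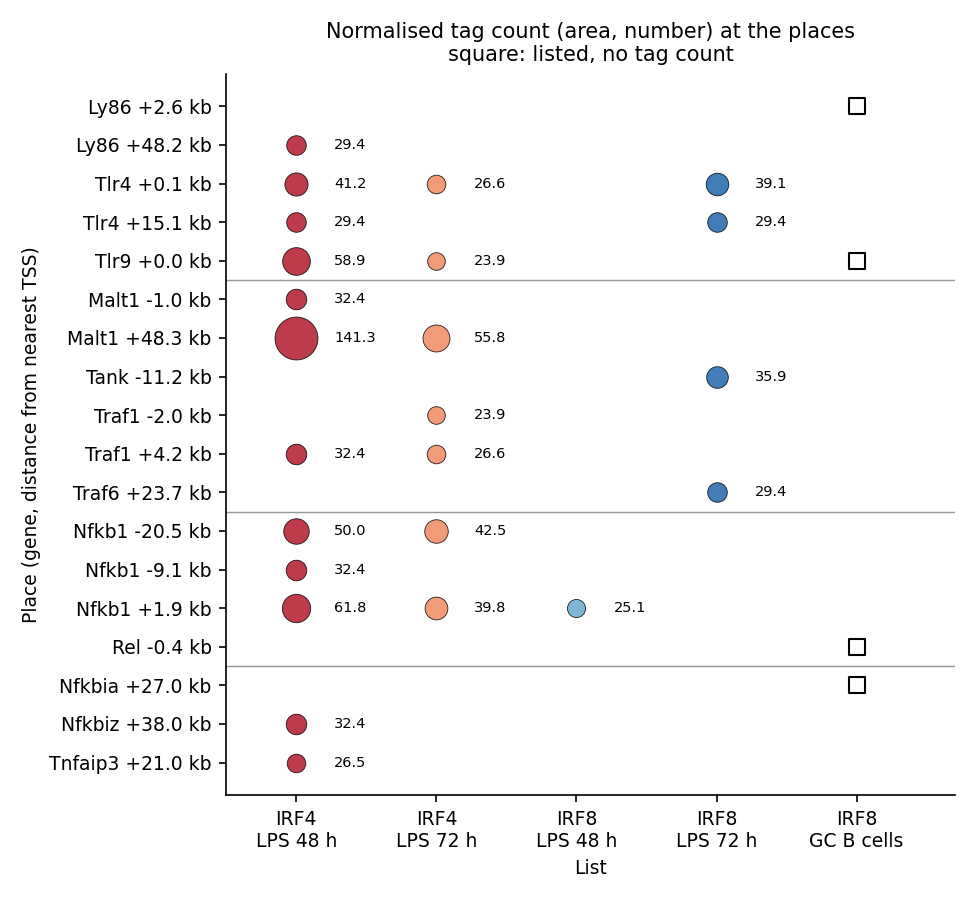
The 18 places (y axis, gene and distance from the nearest TSS in kb, with lines between the roles: receptors, adaptors and kinases, NF-kB subunits, inhibitors) by list (x axis). Circles have an area in proportion to the normalised tag count printed beside them, and squares mark GC intervals, which have no tag count. The first column, IRF4 at 48 h, is the fullest with 12 peaks, and the Malt1 place with 141.3 tags has the largest circle.

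Tlr4, the LPS receptor itself (chromosome 4, 66488618 to 66591318, forward strand), was bound at 2 places. Its promoter carried 41.2 normalised tags for IRF4 at 48 h (chromosome 4, 66488454 to 66488954), 26.6 for IRF4 at 72 h and 39.1 for IRF8 at 72 h, and it was in neither the IRF8 48 h nor the GC list. Normalised tags are the tags of a peak scaled to 10000000 per library. The 95% Poisson intervals, 22.5 to 69.1, 12.7 to 48.8 and 20.2 to 68.4, overlapped one another. They rest on 14, 10 and 12 sequenced tags and cover counting error only. The other place lay 15.1 kb from the nearest TSS (66504126 to 66504626), in an intron of the longest annotated transcript and beyond the last exon of the shorter ones. It carried 29.4 tags for IRF4 at 48 h and 29.4 for IRF8 at 72 h, from 10 and 9 sequenced tags. Its spaced AICE lay 57 bp from the centre of the IRF8 peak and 174 bp from that of the IRF4 peak. Both places of Tlr4 were listed for IRF4 at 48 h and for IRF8 at 72 h, with overlapping Poisson intervals.

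Tlr9, the receptor for unmethylated CpG DNA (chromosome 9, 106124929 to 106129207, forward strand), had 1 place, at its promoter. It carried 58.9 tags for IRF4 at 48 h (chromosome 9, 106124685 to 106125185; interval 36 to 90.9) and 23.9 at 72 h (10.9 to 45.4), and an IRF8 interval of the GC list covered both peaks (106124438 to 106125839). The intervals of the IRF4 peaks overlapped. No IRF8 peak was listed there in LPS cultures. The centres of the IRF4 peaks lay 6 and 2 bp downstream of the TSS, with an AP-1 site 55 bp upstream of the TSS and an ETS site 14 bp downstream of it. The GC interval also took in a full EICE 607 bp downstream of the TSS, in the first intron and outside the LPS peaks. An NF-kB consensus stood directly beside it (chr9:106125501-106125570, both in capitals). These lay 398 and 411 bp from the interval centre. Of whole GC intervals 23% held an EICE and 16.4% an NF-kB consensus, against 13% and 13.2% of windows 2000 bp away.
Tlr9 intron: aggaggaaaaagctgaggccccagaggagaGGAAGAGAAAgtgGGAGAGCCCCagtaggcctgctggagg

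Ly86 encodes MD-1, the partner of RP105 (Cd180), which tunes the LPS response of B cells; Cd180 itself had no interval. One Ly86 place was an IRF4 peak at 48 h in an intron 48.2 kb from the TSS, with 29.4 tags (14.1 to 54.1; chromosome 13, 37485122 to 37485622). Its direct AICE lay 9 bp from the peak centre. The other was a GC interval of IRF8, 2.57 kb from the TSS (37439009 to 37440563), which held 3 ISRE cores (GAAA, NN and GAAA again, as found in interferon-stimulated response elements) but none within 100 bp of its centre. A pair of these cores stood next to each other on opposite strands, shown here in capitals (chr13:37439940-37440023). The GC interval of IRF8 lay near the start of this gene and the LPS peak of IRF4 deep in its body. Cell type and caller differ between these lists as well as the factor. Over whole intervals they held different elements, but the ISRE cores lay 189 bp or more from the centre of the wider GC interval. Of whole GC intervals 37.4% held such a core, against 17.3% of windows of the same length 2000 bp away.
Ly86 ISRE: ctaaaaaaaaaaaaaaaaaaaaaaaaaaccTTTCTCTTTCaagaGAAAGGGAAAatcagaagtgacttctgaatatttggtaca

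Among adaptors and kinases, Malt1 had the peak with the most tags of all 29 genes. MALT1 is the protease that acts with BCL10. The place lay 48.3 kb downstream of the TSS and 0.471 kb beyond the end of the gene (chromosome 18, 65638698 to 65639198), with an AP-1 site 4 bp from the centre. IRF4 carried 141.3 tags there at 48 h (104 to 187), the 27th highest of 1573 peaks, and 55.8 at 72 h (34.5 to 85.2). The intervals did not overlap, and no IRF8 list held the place. A second IRF4 peak at 48 h lay 1.05 kb upstream of the TSS with 32.4 tags. The annotated TSS nearest to the first place is that of a microRNA gene when genes of any type are allowed, and Malt1 is the nearest protein-coding gene.

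Traf1, an NF-kB target that modulates TRAF2 signalling, had IRF4 peaks alone. Its intron carried 32.4 tags at 48 h (chromosome 2, 34809232 to 34809732) and 26.6 at 72 h, and a peak 2.03 kb upstream of the TSS carried 23.9 tags at 72 h. Tank, whose product binds TRAF proteins and the kinase TBK1, and Traf6, the ubiquitin ligase downstream of the IRAK kinases, each had 1 peak for IRF8 at 72 h and no other. The Tank peak lay 11.2 kb upstream with 35.9 tags (17.9 to 64.2) and the Traf6 peak 23.7 kb downstream with 29.4 tags (13.4 to 55.7). Apart from the Malt1 place 48.3 kb from the TSS, each peak in this role rests on 9 to 11 sequenced tags.

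Nfkb1, which encodes p105 and its product p50 (chromosome 3, 135247619 to 135354511, reverse strand), had the most intervals, 6 at 3 places. The place in 3 lists lay in an intron, 1.94 kb downstream of an internal TSS and 25.7 kb from the 5′ end of the gene (chromosome 3, 135328575 to 135329075). It carried 61.8 tags for IRF4 at 48 h (38.3 to 94.5), 39.8 for IRF4 at 72 h (22.3 to 65.7) and 25.1 for IRF8 at 48 h (12.5 to 45). IRF4 at 48 h was highest and IRF8 lowest, with overlapping intervals. This was the sole peak of IRF8 at 48 h at any of the 29 genes, and IRF8 at 72 h had none at Nfkb1. Its central 201 bases (chr3:135328725-135328925) are shown because they held none of the 7 elements searched.
Nfkb1 intron: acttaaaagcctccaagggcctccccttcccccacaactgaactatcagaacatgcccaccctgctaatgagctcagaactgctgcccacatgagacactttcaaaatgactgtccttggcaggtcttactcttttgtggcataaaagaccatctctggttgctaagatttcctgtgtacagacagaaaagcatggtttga

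Deeper in Nfkb1, 62.6 kb from its 5′ end, an IRF4 place carried 50 tags at 48 h (29.2 to 80.1; 135291709 to 135292209) and 42.5 at 72 h (24.3 to 69). A further place 9.09 kb upstream of the gene carried 32.4 IRF4 tags at 48 h. None of the 3 Nfkb1 places held any of the 7 elements within 100 bp of a peak centre. Rel encodes c-Rel, the subunit most tied to lymphocytes, and had a single GC interval of IRF8 at its promoter, with the centre 383 bp upstream of the TSS (chromosome 11, 23670945 to 23671762). That interval held an NF-kB consensus 87 bp upstream of the TSS (chr11:23671021-23671091, in capitals). The consensus lay 296 bp from the interval centre. Of whole GC intervals 16.4% held one, against 13.2% of windows of the same length 2000 bp away. Nfkb2, Rela and Relb had no interval.
Rel upstream: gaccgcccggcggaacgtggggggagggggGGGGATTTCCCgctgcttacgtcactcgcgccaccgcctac

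The intervals of the 3 bound inhibitors lay at least 21 kb from the nearest TSS. Most intervals of all genes were away from a TSS too: 10.8% of all placed LPS peaks and 26.4% of GC intervals had their centre within 1000 bp of one. Tnfaip3, which encodes the ubiquitin-editing enzyme A20, had an IRF4 peak at 48 h of 26.5 tags (12.1 to 50.3), 21 kb downstream of the nearest TSS and 13.1 kb beyond the gene (chromosome 10, 18707398 to 18707898). Nfkbiz, which encodes the nuclear protein IκBζ, had one of 32.4 tags (16.2 to 57.9), 27.2 kb beyond the gene (chromosome 16, 55784021 to 55784521), with an AP-1 site 22 bp from its centre (chr16:55784211-55784331, in capitals). With genes of any type allowed, a small nuclear RNA gene is nearer to the Nfkbiz peak. The Tnfaip3 and Nfkbiz peaks rest on 9 and 11 sequenced tags. The lowest peak of the IRF4 48 h list carried 23.6 normalised tags. Nfkbia had a GC interval of IRF8, 27 kb downstream of its TSS (chromosome 12, 56566038 to 56567319), with an ISRE core 132 bp from its centre (chr12:56566511-56566580). Each of these places was in 1 list.
Nfkbiz downstream: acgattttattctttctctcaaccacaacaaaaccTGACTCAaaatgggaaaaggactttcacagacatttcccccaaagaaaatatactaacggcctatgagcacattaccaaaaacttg
Nfkbia downstream: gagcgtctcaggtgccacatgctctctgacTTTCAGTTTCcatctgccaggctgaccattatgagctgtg

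The window of 50 kb decides some members. Just inside it were the Ly86 peak at 48.2 kb and the Malt1 place at 48.3 kb. Just outside were GC intervals of IRF8 53 kb upstream of Tnfaip3, with an ISRE core within 100 bp of the centre, and 64.3 kb upstream of Nfkb2, with an EICE. The Nfkbiz peak lay 38 kb from the nearest TSS but 54.7 kb from the 5′ end of the gene. With the 5′ end as the only TSS, 7 genes remained for IRF4 at 48 h, without Nfkbiz, against 4.47% of all genes. The Nfkb1 place 62.6 kb from the 5′ end lay 20.5 kb from an internal TSS.

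Where the intervals lay relative to genes was counted next. Of the 24 LPS peaks, 5 were at promoters, with the centre within 1000 bp of a TSS (20.8%, against 10.8% of all placed LPS peaks), 10 in introns (41.7%, against 44.3%) and 9 between genes (37.5%, against 42.4%). These promoter peaks were those of Tlr4 (3 lists) and Tlr9 (2 lists), so they stand for 2 places. In the GC list, 2 of 4 intervals were at promoters, Tlr9 and Rel, where 26.4% of the whole list was. At this limit the LPS promoter peaks were all at receptors. With a limit of 2500 bp, peaks of Malt1, Nfkb1 and Traf1 counted as well. No adaptor, kinase or inhibitor among the 29 genes had a promoter interval within 1000 bp. The nearest to that limit was the upstream Malt1 peak, 1.05 kb from the TSS. This does not hold for the pathway at large. Among 40 other pathway genes, the adaptor Ticam2 (IRF4, 48 h), Peli1 (IRF4, 72 h) and the inhibitor Cyld (GC) had promoter intervals.

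The elements under the peaks were counted within 100 bp of the centre, on both strands. No EICE (GGAA, then NN, then GAAA) and no ISRE core lay under the 24 LPS peaks, where 19.6% and 7.41% of all placed LPS peaks had one, and windows 2000 bp away had them in 2.31% and 2.93%. Counted by place, 0 of 15 LPS places had an EICE, which allows a share of up to 20%, against 16.9% of all LPS places, so the difference is not detectable with so few places. AP-1 sites (TGACTCA on either strand) lay under 7 of the 24 peaks (29.2%, against 19.4% of all LPS peaks and 3.79% of the windows away). These were 5 of 15 places (33.3%, against 20.2% of all LPS places): the Malt1 place, the Tlr9 promoter, the Tlr4 intron, the Ly86 intron and the Nfkbiz place. Those at the Tlr4 and Ly86 introns belong to the spaced and the direct AICE, elements that 2.04% and 2.2% of all LPS peaks held. An AP-1 site is part of each AICE, so these are not separate counts.

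**Figure D3:**
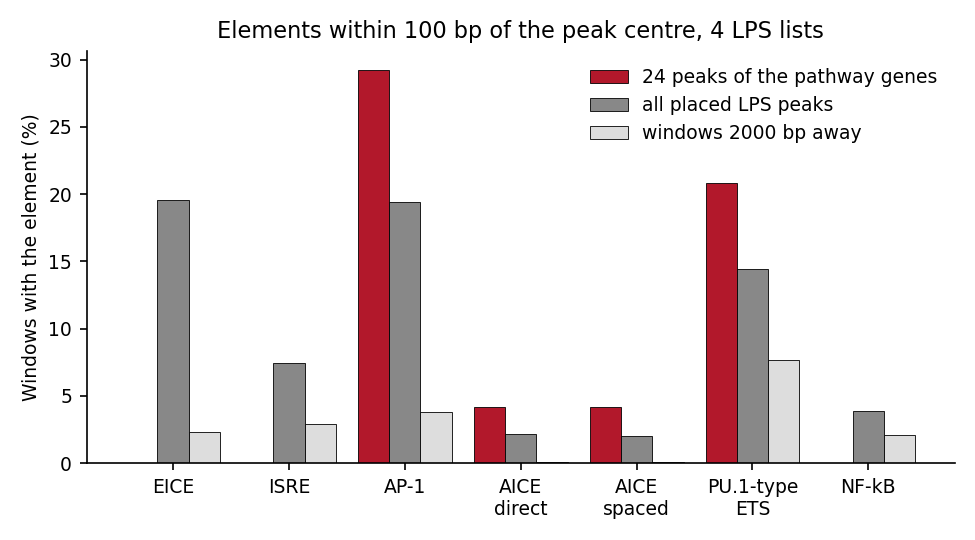
Share of windows (y axis, %) that hold each element (x axis) within 100 bp of the peak centre in the 4 LPS lists, for the 24 peaks of the pathway genes (red), all placed LPS peaks (grey) and windows 2000 bp away (light). The red bar is at 0 for EICE, ISRE and NF-kB and at 29.2% for AP-1, and the 24 peaks come from only 15 places.

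The PU.1-type ETS site (GAGGAAG) lay under 5 of the 24 peaks (20.8%, against 14.4% of all LPS peaks), all at the Tlr4 and Tlr9 promoters. Counted by place these were 2 of 15 (13.3%, against 14.7% of all LPS places), so there was no excess by place. The NF-kB consensus lay under none of them, and under 3.89% of all LPS peaks. Over all 5 lists, 12 of the 18 places (66.7%) held none of the 7 elements within 100 bp of any centre, against 55.1% of all placed places. In the 4 GC intervals no element lay within 100 bp of the centre, where the most common ones lay in 13.5% (ISRE) and 12.1% (ETS) of the whole list, so an absence in 4 intervals says little. Over whole GC intervals, which are wider, there was an ISRE core in 2 of 4, Ly86 and Nfkbia. Of the whole list 37.4% held one, and of windows of the same length 2000 bp away 17.3%. An EICE lay in 1 (Tlr9, against 23% of the list and 13% of the windows). The NF-kB consensus lay in 2 (Rel and Tlr9, against 16.4% and 13.2%).

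The promoters of Tlr4 and Tlr9 shared a stretch of 10 letters, the capitals in their 2 start sequences above. Read on the reverse strand it is the ETS site GAGGAAG followed by TGA, the first letters of an IRF half-site, and at both promoters the sequence departs from the full EICE in 1 letter. It is the longest stretch that the windows under the IRF4 peaks of these promoters at 48 h share on either strand, and it was chosen after the sequences were seen. It lay under all 5 LPS peaks of these promoters and under no other of the 24 peaks. Its presence under the IRF4 peaks at 48 h was fixed by that choice, and the other LPS peaks of these promoters overlap them. The shares that follow therefore describe the stretch and test nothing. The stretch was under 3.76% of all placed LPS peaks (140 of 3723), 0.0538% of windows 2000 bp away and 0.25% of windows of the same length around the 5′ end of every protein-coding gene. With the EICE cut to its first 8 letters, GGAANNGA, 6 of the 24 peaks held one (25%), those of Tlr4, Tlr9 and the upstream peak of Traf1. That short form was common elsewhere too, in 35.7% of all LPS peaks and 15.4% of the windows away.

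The tags at these genes were set against their lists. The median peak of the 29 genes carried 32.4 normalised tags for IRF4 at 48 h, against 38.3 over the whole list, and 26.6 against 29.2 at 72 h. For IRF8 at 72 h it was 32.6 against 32.6, and the lone IRF8 peak at 48 h had 25.1 against 27.4. For IRF4, 5 of 12 peaks at 48 h and 3 of 7 at 72 h were above the median of their list, where 41.4% and 49.4% of all peaks were, since many peaks tie at the median. For IRF8 it was 0 of 1 at 48 h and 2 of 4 at 72 h, against 46.2% and 37.7%. Only the Malt1 place ranked among the 100 highest peaks of a list. None of the 28 intervals lay in multi-copy sequence.

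At the 6 places in both IRF4 lists, all 6 carried fewer tags at 72 h, with a median log2 ratio of -0.63. Over all 536 places shared by these lists the median was -0.39 and 421 were lower, so a lower value at 72 h is the common case. The Malt1 place passed the test, with a ratio of 0.395 (0.224 to 0.672; exact binomial test of 48 against 21 tags, two-sided, adjusted p = 0.00948 over 1054 comparisons at all shared places). In this pair 3.73% of the shared places were called lower, and 0 of 536 higher. With the libraries scaled by the median ratio of shared places, the Malt1 call ended (log2 ratio -0.93, exact binomial test, adjusted p = 0.283). The ratio at the Tlr9 promoter, 0.406 (0.163 to 0.933), missed the threshold (exact binomial test, adjusted p = 0.211). The ratios were 0.646 at the Tlr4 promoter, 0.644 and 0.85 at the Nfkb1 places and 0.821 at the Traf1 intron, with intervals that included 1 (exact binomial tests, adjusted p = 0.685 to 0.962).

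**Figure D4:**
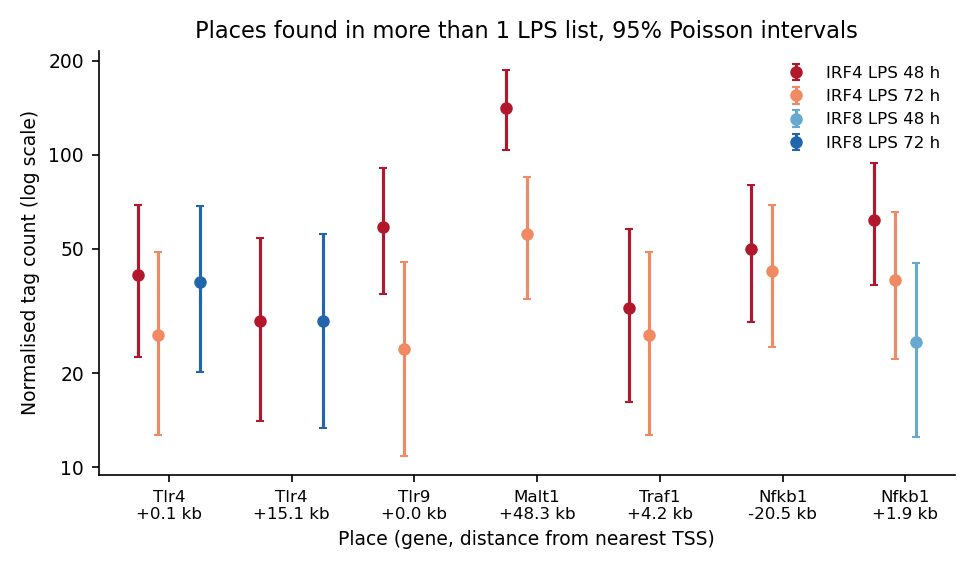
Normalised tag count (y axis, log scale) with 95% Poisson intervals at the 7 places found in more than 1 LPS list (x axis, gene and distance from the nearest TSS in kb), 1 point per library. The IRF4 points at 48 h are above those at 72 h at the 6 places that have both, and the intervals are apart at Malt1 alone.

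Between the factors, 1 place could be compared at each time. Between the 2 times of IRF8 none could, and 8.7% of the 138 shared places of that pair were called higher at 72 h. At 48 h the Nfkb1 intron had an IRF8 over IRF4 ratio of 0.406 (0.177 to 0.882; exact binomial test, adjusted p = 0.179), where the median over all 122 shared places was 0.731, 13.1% were called lower and 0.82% higher (13.9% in all). At 72 h the Tlr4 promoter had a ratio of 1.47 (0.584 to 3.81; exact binomial test, adjusted p = 0.843), where the median over 258 places was 1.03 and 1.16% were called in either direction (0.775% higher, 0.388% lower). Antibodies differ between the factors, and the libraries enter more than 1 of these pairs. The tests compare libraries and not culture conditions.

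Other genes of the pathway were read from a list of 40. IRF4 intervals lay at 3 of them at 48 h (7.5%) and 2 at 72 h (5%), and IRF8 intervals at 0, 3 (7.5%) and 9 (22.5%) in the 48 h, 72 h and GC lists. The IRF4 share at 48 h was therefore nearer to the 4.82% of all genes than that of the 29 genes was, while the GC share was further above its 5.99%. The highest of their LPS peaks was at Tnfrsf13c, which encodes the BAFF receptor, with an EICE and 50 tags for IRF4 at 48 h (29.2 to 80.1) and 37.2 at 72 h (20.3 to 62.4). Ticam2, an adaptor of TLR4, carried 35.3 IRF4 tags at its promoter at 48 h, and Tnip1, a partner of A20, 32.6 IRF8 tags at 72 h. Tlr1, which pairs with TLR2, carried 29.4 IRF8 tags at 72 h at a peak with an EICE. Among the genes with a GC interval were Cyld, Peli1, Rbck1, Tab2, Tlr1, Tlr6, Tnip1 and Traf5, of which Cyld, Peli1, Rbck1, Tab2, Tlr6 and Traf5 had one at the promoter.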

How the data were processed

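The deposited signal of an LPS peak is a tag count that the authors normalised to a library of 10000000 (per the file headers). HOMER findPeaks is named there, with peaks of 500 bp, a false discovery rate of 0.001, a local fold of 4 within 10000 bp and no control library. The deposited findPeaks score, focus ratio (a fraction), ratios over the local region and p-values are the authors' caller's values and were not used. The GC list holds positions only, called with MACS per the series' design text, with version, threshold and control not given in the sources used here. The build was mm9 per the labels; BWA and Bowtie2 appear in the submitters' processing notes, with no role given. The aligner named in the design text differs from these and is not settled here.

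Intervals were assigned with Python 3.11.15 and pysam 0.24.0, counting every transcript start of a protein-coding gene. Dividing out the scaling gave whole tags within 0.05 for 100% of LPS peaks; these gave exact Poisson intervals (95%, counting error only) and exact binomial tests (scipy 1.17.1) against the ratio of library totals at places overlapping by at least 1 bp, Benjamini-Hochberg adjusted over 4 pairs of libraries. The tag test was tested on simulated data for the IRF4 pair: of 500 places, it called 100 of 100 with a 4-fold change and 3 of 400 with none. The simulation held no smaller change and was adjusted over its own 500 places, not over 1054. It therefore does not show how often smaller changes, or changes at places with few tags, are missed. Its counts were Poisson draws with no shift common to all places, where the real IRF4 pair had a median ratio of 0.765. False calls from such a shift, or from spread beyond counting error, were not simulated. Every member with an interval is named; of the other pathway genes, the 5 highest by tag count and, chosen after the values were seen, those with a GC interval, except 1 gene that is counted but not reported here. Peaks were multi-copy where the median 24-base word within 100 bp of the centre occurred more than 1 time in mm9. Gene lists and members were chosen with earlier results of these data known. No sequence is printed for Malt1.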

Additional observations from a re-analysis of the deposited data

How the results depend on the processing

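Each group was 1 library, so no replicate could be left out. No paired analysis was possible because no group held more than 1 library. Counts of genes bound moved with the limits on peaks and distance. With a TSS within 10000 bp, 5 genes remained for IRF4 at 48 h and 1 for IRF8 at 72 h. Of all genes, 2.53% and 1.73% had an interval in these lists at that distance. With peaks of at least 32.6 tags (the median over all LPS peaks), 4 genes remained for IRF4 at 48 h and 2 at 72 h. For IRF8 at 48 h 0 remained. The shares of all genes at this limit were 3.07%, 1.2% and 0.247%. With LPS lists of equal length the counts were 2, 2 and 0 for IRF4 at 48 h, IRF4 at 72 h and IRF8 at 72 h, or 3, 2 and 1 with tied peaks kept (added after the data were seen). Fewer peaks entered by construction in each case. Scaled by the median ratio, 0 places passed the tag test between the IRF4 lists, with a log2 ratio of -0.93 at Malt1; its adjusted p over the other alternatives was 0.00923 to 0.0147. Over whole intervals the elements lay in more of the 28 intervals: EICE 1, ISRE 3, spaced AICE 2, ETS 9 and NF-kB 2. In the same order these were 3.57%, 10.7%, 7.14%, 32.1% and 7.14%. Of all placed intervals 23.3%, 20.7%, 1.98%, 30.8% and 10.4% held them. The EICE, 2 of the ISRE and the 2 NF-kB hits were in GC intervals, which are wider. Within 50 bp there were 4 with AP-1 and 0 with a spaced AICE, against 7 and 1 within 100 bp. The short EICE, added after the data were seen, was in 7 within 100 bp (25%, against 31.4% of all placed intervals). With promoters of 2500 bp, 4, 4 and 1 peaks counted for IRF4 at 48 h, IRF4 at 72 h and IRF8 at 48 h. The other 46 alternatives for counts stayed within 1.5 times the reported count, or at 0.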
